A study of Mus musculus with 6 samples.

Results

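The 10 transcripts described here encode the classical MHC class I route of antigen presentation: the class I heavy chains H2-K1 and H2-D1, the light chain B2m, the peptide transporter subunits Tap1 and Tap2, the loading chaperone Tapbp, the immunoproteasome subunits Psmb8, Psmb9 and Psmb10, and the transcriptional activator Nlrc5. They were listed by name, with no measured value in the rule, from the 49585 genes counted, and all 10 passed the filter on low counts that left 11041 genes for testing. The libraries came from microglia, the resident macrophages of the brain, of male mice aged 3 months: 3 wild-type libraries (WT) and 3 from mice labelled IRF8KO, which carry a knockout of the transcription factor gene Irf8 per the label. Per the labels' protocols, microglia of each brain were obtained without enzymes and sorted by flow cytometry into TRIzol, polyadenylated RNA was copied with a full-length low-input kit (SMART-Seq v4) and tagged with Nextera XT. The labels give no strain, no allele of the knockout and no statement of which cells of the mouse carry it; the comparison asks how these transcripts differ between the genotypes.

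Every nucleated cell can show peptides of its own proteins on class I molecules. Proteasomes cut the proteins, the TAP transporter carries the peptides into the endoplasmic reticulum, tapasin (Tapbp) holds empty class I chains next to it, and the chain with B2m and a peptide goes to the surface for CD8 T cells to read. Interferons raise most of these genes; interferon regulatory factors bind response elements in their promoters, and NLRC5, itself interferon-induced, joins a complex of RFX, CREB/ATF and NF-Y factors on class I promoters. Resting microglia are known for low class I display that rises with inflammation and age.

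Total gene counts were 3658917 to 10859529 in WT and 8994860 to 11098363 in IRF8KO. CPM are gene counts scaled to a common library total after TMM, a correction for differences in library composition that matters here because Apoe alone took 29.1% ± 4.22 of the gene counts in IRF8KO and 0.234% ± 0.0853 in WT (SD, n = 3 each). Irf8 itself was counted in all 6 libraries, at 795, 851 and 1403 CPM in WT and 743, 650 and 850 CPM in those labelled IRF8KO; its log2 fold change was −0.44 with SE 0.33 and was not called (adjusted p = 0.368 by edgeR's quasi-likelihood F test, with Benjamini-Hochberg adjustment over all tested genes; a gene is called under 0.05). With scaling by library size alone, Irf8 was at −0.90 and called (adjusted p = 0.0076, same edgeR test). The median of all tested genes in that fit was −0.61. Without WT replicate 3, Irf8 was at −0.11 and not called. Counts over a whole gene do not separate intact from altered transcripts, so each direction below rests on the labels. WT replicate 3 stood apart from the other WT libraries: its log2 difference from them increased with gene GC content (Spearman 0.615 over 11034 genes, which are not independent replicates), and the IRF8KO to WT log2 fold change did so as well (0.276). WT replicate 3 also held the highest WT level of 9 of the 10 members. The exception was B2m, which at 41.2% GC had the lowest GC content of the set, where the other 9 lay between 52.5% and 57.1%. Among the IRF8KO libraries, replicate 1 was highest and replicate 2 lowest for 8 members each, and B2m again ran the other way.

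Of the 10 members, H2-K1 alone rose in IRF8KO and none fell. Across all tested genes 19.1% were called in either direction, 9.64% higher and 9.46% lower, so 1 call among 10 members was near the background (same edgeR test). By other tools the members called were 2 with DESeq2, which called 2692 of the 11041 genes, and 1 with limma-voom, which called 2291. At an unadjusted p under 0.05 there were 3 members, H2-K1, Psmb10 and Tap2, against 33.7% of all tested genes. Without overlap between the groups, IRF8KO lay above WT for H2-K1, Psmb9 and Psmb10, where 20.0% of all tested genes did so, and below it for Tap2, where 17.9% did. The members' median log2 fold change was 0.28 and that of all tested genes −0.11; fitted values of 7 members were above 0 and of 3 below. With scaling by library size alone, which moves the all-gene median to −0.61, the members' median was −0.18. In every scaling tried, the members' median stayed above that of all genes, by 0.36 to 0.43. Scaling moves all genes by about the same amount, so this gap could hardly change with it. The gap was 0.12 with no filter on low counts and 0.24 with an offset for GC content and length. Leaving out 1 library, it ran from 0.17 (without WT replicate 2) to 0.67 (without WT replicate 3).

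**Figure D1:**
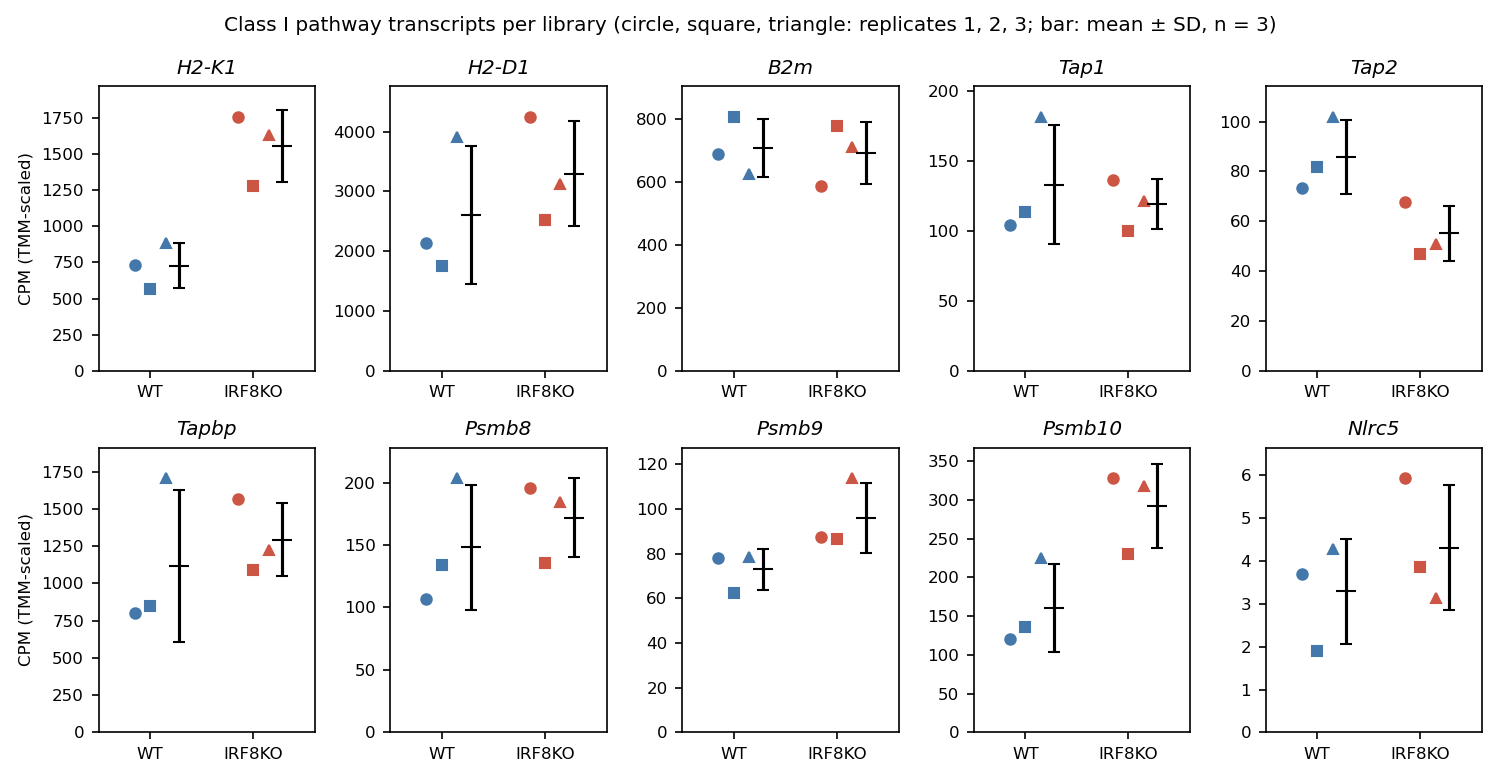
Level of each of the 10 transcripts in CPM (y axis, linear from 0) in the 3 WT and 3 IRF8KO libraries, with mean ± SD. The H2-K1, Psmb9 and Psmb10 points of IRF8KO lie above all WT points and those of Tap2 below; in the other 6 panels the groups overlap, and the WT triangle (replicate 3) is the highest WT point in 9 panels.

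The heavy chains are the peptide-binding part of the class I molecule; H2-K1 was called and H2-D1 was not, and the difference between their changes was not tested. H2-K1 (ENSMUSG00000061232, chromosome 17, 33996017 to 34000347, minus strand, GRCm38) had 730, 569 and 880 CPM in WT and 1757, 1277 and 1628 CPM in IRF8KO. The lowest IRF8KO library was above the highest WT library. The fold was 2.14, or 1.10 on the log2 scale with SE 0.32 (adjusted p = 0.031, same edgeR test), higher than that of 85.7% of all tested genes. The log2 fold change lay between 0.59 and 1.29 over 17 alternative analyses and was called in 12 of them; the call was lost with the replicate block (adjusted p = 0.052) and without WT replicate 1 or 2 or IRF8KO replicate 1 or 3 (adjusted p = 0.094, 0.167, 0.120 and 0.140, same edgeR test).

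H2-D1 (ENSMUSG00000073411, chromosome 17, 35262730 to 35267499, plus strand), the other classical chain, had 2137, 1752 and 3914 CPM in WT and 4251, 2515 and 3121 CPM in IRF8KO. The WT spread covered most of the IRF8KO range. Its log2 fold change of 0.34 (SE 0.39) was not called (adjusted p = 0.583, same edgeR test), and it was −0.13 with scaling by library size alone. Without WT replicate 3 it was 0.79 and called (adjusted p = 0.024, same edgeR test), and without WT replicate 2 or IRF8KO replicate 1 it was 0.12 in both fits. Of all 50-base stretches of their annotated transcripts, 9.63% in H2-K1 and 12.8% in H2-D1 also occur in another gene, other class I genes among them. Reads confined to such stretches map to several places and were not counted, so the level of both chains is uncertain. These shares come from the reference transcripts. With no strain given, differences between the mice and the reference were not examined.

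B2m (ENSMUSG00000060802, chromosome 2, 122147686 to 122153083, plus strand) encodes beta-2 microglobulin, the light chain that every class I molecule needs to fold. It had 688, 806 and 625 CPM in WT and 586, 777 and 709 CPM in IRF8KO. The groups overlapped almost fully. The log2 fold change was −0.03 (SE 0.29, adjusted p = 0.955, same edgeR test) and ranged from −0.53 to 0.13 over 17 alternatives, none of which called it.

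A ratio of 2 transcripts within a library does not depend on how libraries are scaled to each other. In counts per kb of exonic length, H2-K1 stood at 0.311, 0.206 and 0.412 of B2m in WT and at 0.878, 0.481 and 0.672 in IRF8KO. All 3 IRF8KO ratios exceeded all WT ratios. The mean log2 ratio differed by 1.14 (SE 0.38), a 2.20-fold higher H2-K1 per B2m (exact permutation test, two-sided, p = 0.10, the smallest that 3 against 3 libraries allow; 0.20 after Benjamini-Hochberg adjustment over the 2 chains). It stayed between 0.88 and 1.38 with any 1 library left out and was 1.29 after a correction for GC content and length. H2-D1 per B2m was 1.03, 0.725 and 2.09 in WT and 2.42, 1.08 and 1.47 in IRF8KO. These ratios overlapped, with a log2 difference of 0.43 (SE 0.56, exact permutation p = 0.40, adjusted 0.40) that ran from 0.090 without WT replicate 2 to 0.85 without WT replicate 3. H2-K1 per H2-D1, a pair picked after the values were seen and so given with no test, was 0.300, 0.285 and 0.197 in WT and 0.363, 0.445 and 0.458 in IRF8KO, with no overlap.

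The promoters of these 3 genes are shown because H2-K1 and H2-D1 have near-copies of one control region and B2m has a different one. Windows are 300 bases long and span the RefSeq start site (GRCm38.p6), with most of their length before it, 5′ to 3′ on the gene's strand, and capitals mark matches to the motifs given in the next paragraph. H2-K1 (the first of its 2 windows) is chr17:34000298-34000597 on the minus strand, H2-D1 is chr17:35262844-35263143 and B2m is chr2:122147437-122147736, both on the plus strand.
H2-K1: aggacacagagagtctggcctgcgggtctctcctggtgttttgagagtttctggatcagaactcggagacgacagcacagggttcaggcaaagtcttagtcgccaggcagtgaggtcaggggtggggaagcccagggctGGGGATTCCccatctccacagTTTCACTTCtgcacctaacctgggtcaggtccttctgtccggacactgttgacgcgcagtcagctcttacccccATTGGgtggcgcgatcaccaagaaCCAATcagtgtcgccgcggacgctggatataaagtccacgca
H2-D1: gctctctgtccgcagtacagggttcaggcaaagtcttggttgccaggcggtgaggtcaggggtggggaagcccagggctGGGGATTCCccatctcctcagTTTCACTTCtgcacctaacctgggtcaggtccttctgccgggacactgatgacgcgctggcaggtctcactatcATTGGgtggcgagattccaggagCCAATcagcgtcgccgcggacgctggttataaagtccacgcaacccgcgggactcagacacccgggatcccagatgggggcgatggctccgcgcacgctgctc
B2m: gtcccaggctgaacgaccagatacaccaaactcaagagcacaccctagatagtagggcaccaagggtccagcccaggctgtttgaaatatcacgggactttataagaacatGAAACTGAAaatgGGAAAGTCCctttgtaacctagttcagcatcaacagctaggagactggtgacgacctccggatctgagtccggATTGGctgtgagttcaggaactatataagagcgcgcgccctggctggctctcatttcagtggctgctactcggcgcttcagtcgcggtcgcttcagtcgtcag

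Over the 240 aligned bases, H2-K1 and H2-D1 were identical at 211 (87.9%). Motifs were searched on both strands, over all 32851 RefSeq windows of this length. GGGGATTCC, an NF-kB site form, lay at −111 to −103 in H2-K1 and −171 to −163 in H2-D1, and 0.250% of all windows hold it. GAANNGAAA, a core of the interferon-stimulated response element, lay on the opposite strand at −90 to −82 in H2-K1 and −150 to −142 in H2-D1, against 7.52% of all windows. Both of these motifs were added after the sequences had been seen. B2m held GAAANNGAA, the same core in the other order, at −139 to −131 (8.56% of windows) and GGNNTTTCC, another NF-kB form, on the opposite strand at −126 to −118 (5.82%). CCAAT, the Y box core bound by NF-Y, was found in 6 of the 8 member genes with a window, against 37.4% of all windows. These genes are not independent: Tap1 and Psmb9 share a single match, and H2-K1 and H2-D1 are near-copies. No matches overlapped in the 3 windows printed above. GGAANNGAA, the ETS-IRF composite element that IRF8 binds with PU.1, was found in Psmb10 only (8.24% of windows), TTCNNNGAA, the gamma-activated site core, in Psmb8 only (8.30%), and TGACGTCA in none of the 8 (1.79%). A match is a string of letters, not a bound site.

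Tap1 and Tap2 pair to form the peptide transporter, and neither was called. Tap1 (ENSMUSG00000037321, chromosome 17, 34187553 to 34197225) had 104, 114 and 182 CPM in WT and 137, 100 and 121 CPM in IRF8KO. The groups overlapped, with a log2 fold change of −0.16 (SE 0.30, adjusted p = 0.749, same edgeR test). With library size alone it was −0.63 and called (adjusted p = 0.023, same edgeR test), where the median of all tested genes was −0.61. Without WT replicate 3 it was 0.16 and not called. Tap2 (ENSMUSG00000024339, chromosome 17, 34203527 to 34216321) had 73.3, 81.9 and 102 CPM in WT and 67.6, 46.9 and 51.0 CPM in IRF8KO. All IRF8KO libraries were below all WT libraries, with a log2 fold change of −0.64 (SE 0.28) that was not called (unadjusted p = 0.041, adjusted p = 0.131, same edgeR test). It was below 0 in all 17 alternatives and called in 3 of them: library size alone, the GC and length offset, and counts of the opposite strand.

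The Tap1 to Tap2 ratio per kb, picked after the values were seen and not tested, was 0.981, 0.958 and 1.23 in WT and 1.39, 1.48 and 1.64 in IRF8KO. The 2 sets did not overlap, and the log2 difference was 0.52, or 0.60 with the GC and length offset. Exons of Tap2 overlap other genes, among them the antisense Gm20496, over 18.5% of their length; a read on both genes is counted for neither.

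Tapbp (ENSMUSG00000024308, chromosome 17, 33915899 to 33929292) encodes tapasin, which tethers empty class I chains to the transporter. It had 803, 849 and 1708 CPM in WT and 1568, 1093 and 1222 CPM in IRF8KO. WT replicate 3 was the highest of all 6 libraries and the other 2 WT libraries were the lowest. The log2 fold change was 0.21 (SE 0.37, adjusted p = 0.728, same edgeR test). Without WT replicate 3 it was 0.68 and called (adjusted p = 0.021, same edgeR test), without WT replicate 1, WT replicate 2 or IRF8KO replicate 1 it was 0.0056, 0.038 and 0.056, and with library size alone it was −0.24. Other genes share 29.0% of its exonic length.

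Immunoproteasome subunits replace the 3 catalytic subunits of the standard core, which changes the peptides made. Psmb8 (ENSMUSG00000024338, chromosome 17, 34197721 to 34201454), the chymotrypsin-like one, had 107, 134 and 204 CPM in WT and 196, 136 and 184 CPM in IRF8KO, with overlap. Psmb9 (ENSMUSG00000096727, chromosome 17, 34181987 to 34187764), which takes the caspase-like site, had 78.0, 62.4 and 78.6 CPM in WT and 87.3, 86.6 and 114 CPM in IRF8KO. Its groups did not overlap, though by a small margin. Their log2 fold changes of 0.21 (SE 0.31) and 0.40 (SE 0.27) were not called (adjusted p = 0.670 and 0.325, same edgeR test), and with library size alone they were −0.26 and −0.11. Psmb8 ran from 0.013 without WT replicate 1 to 0.54 without WT replicate 3, neither called.

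Psmb10 (ENSMUSG00000031897, chromosome 8, 105935735 to 105938444), the trypsin-like subunit, had 120, 136 and 226 CPM in WT and 328, 230 and 318 CPM in IRF8KO. WT replicate 3 was just under IRF8KO replicate 2, and the groups did not overlap. Its fold of 1.82, a log2 fold change of 0.86 (SE 0.32), missed the threshold (unadjusted p = 0.019, adjusted p = 0.079, same edgeR test). It was above 0 in all 17 alternatives and called in 4, with adjusted p from 0.0015 without WT replicate 3 to 0.304 with the GC and length offset, under which the value itself dropped to 0.22.

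**Figure D2:**
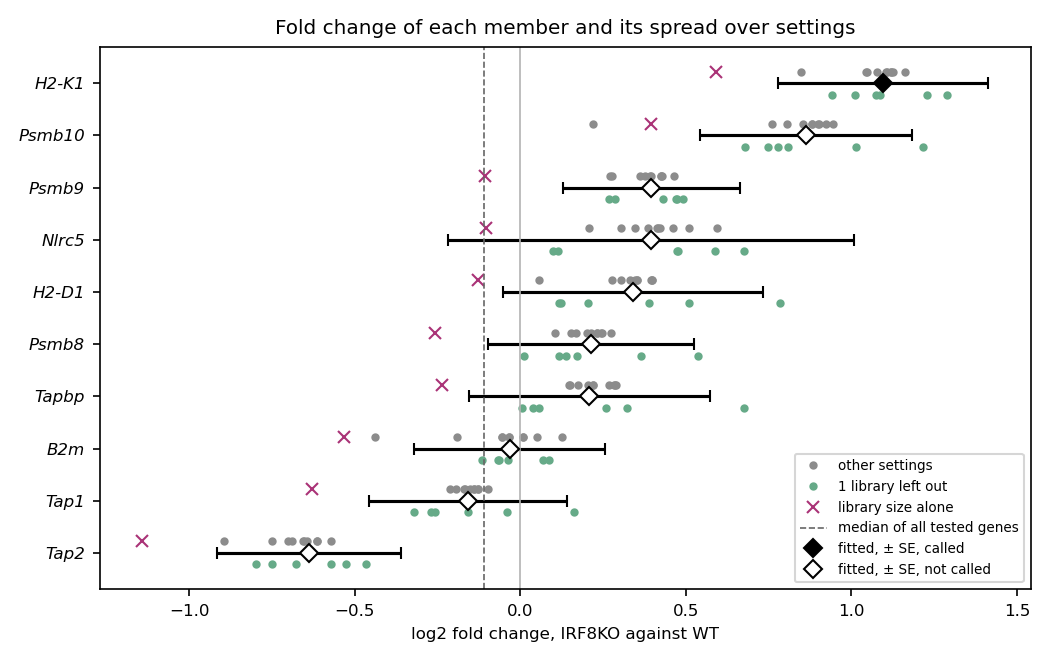
Log2 fold change of IRF8KO against WT (x axis) for each of the 10 transcripts: diamonds are the fitted values ± SE, filled where called, green points the fits without 1 library, grey points other settings and crosses scaling by library size alone. H2-K1 alone is filled, at 1.10; Tap2 is lowest at −0.64, and crosses of 5 transcripts lie on the other side of 0 from their diamonds.

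Each induced subunit was set against the standard subunit whose place it takes, as a ratio per kb within the library. Psmb8 to Psmb5 was 0.820, 0.887 and 0.759 in WT and 0.622, 0.661 and 0.572 in IRF8KO. Psmb10 to Psmb7 was 19.2, 18.2 and 30.5 in WT and 37.5, 38.0 and 36.0 in IRF8KO. One ratio was lower and the other higher in every IRF8KO library, while Psmb9 to Psmb6 overlapped, at 0.106 to 0.154 in WT and 0.0844 to 0.129 in IRF8KO. The log2 differences were −0.41 (SE 0.09), 0.75 (SE 0.24) and −0.26 (SE 0.25), with exact two-sided permutation p of 0.10, 0.10 and 0.40, adjusted over the 3 pairs to 0.15, 0.15 and 0.40. They kept their signs without any 1 library, but all 3 reversed under the GC and length offset, to 0.59, −0.59 and 0.17, so no direction of these ratios held under both treatments of GC content. Psmb5 shares 54.1% of its 50-base stretches with other genes, pseudogene copies included, and Psmb7 had only 64 to 212 counts a library.

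**Figure D3:**
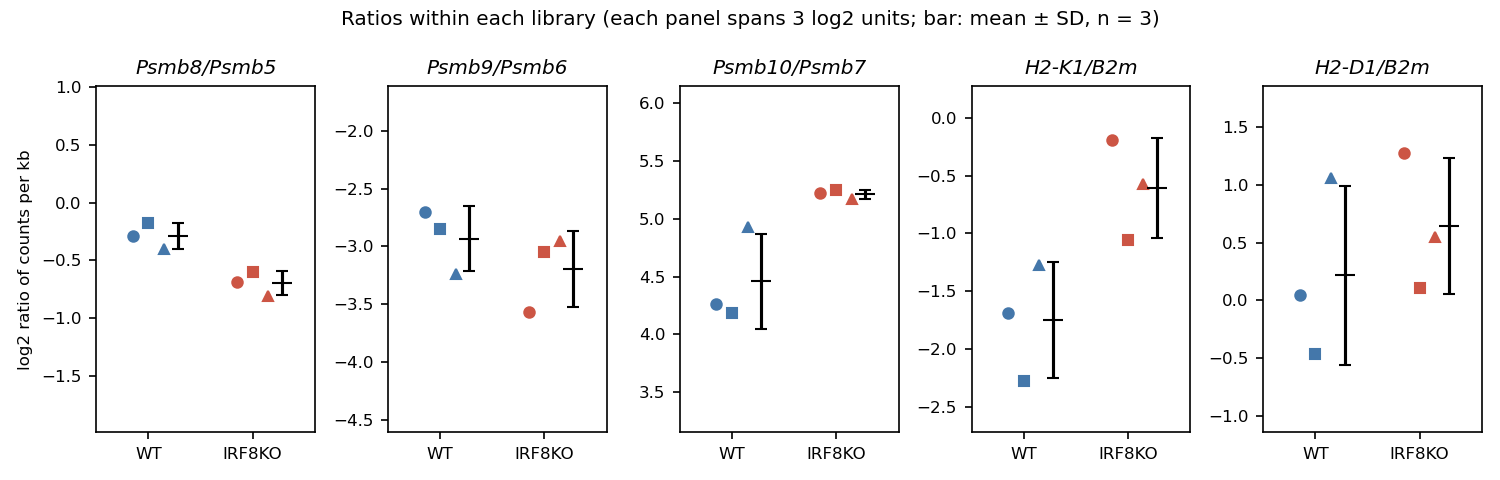
Log2 ratio of counts per kb of exonic length in each library (y axis; panels differ in position but span the same length) for 3 immunoproteasome subunits against their standard counterparts and 2 heavy chains against B2m, with mean ± SD. Psmb8/Psmb5 is lower, and Psmb10/Psmb7 and H2-K1/B2m are higher, in every IRF8KO library than in every WT library; the other 2 panels overlap.

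Psmb9 and Tap1 lie head to head with start sites 226 bases apart, so one stretch serves as promoter for both, and their fitted changes differed in sign (0.40 and −0.16, neither called). The Tap1 window, chr17:34187306-34187605 on the plus strand, is printed because it holds 275 bases of the Psmb9 window as well.
Tap1: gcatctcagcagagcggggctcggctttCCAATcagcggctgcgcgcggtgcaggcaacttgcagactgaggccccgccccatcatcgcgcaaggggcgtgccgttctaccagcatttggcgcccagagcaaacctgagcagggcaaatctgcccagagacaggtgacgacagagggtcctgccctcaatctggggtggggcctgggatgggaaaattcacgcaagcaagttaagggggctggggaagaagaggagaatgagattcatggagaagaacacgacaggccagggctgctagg
In this window the capitals mark its single match, a CCAAT at −222 to −218 from the Tap1 start, which read from Psmb9 lies at −8 to −4. Within about the same stretch of chromosome 17 follow Psmb8 and Tap2, so these 4 neighbours had fitted log2 fold changes of 0.40, −0.16, 0.21 and −0.64 in order along the chromosome.

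Nlrc5 (ENSMUSG00000074151, chromosome 8, 94434356 to 94527272), the activator of class I genes, was scarce. It had 19, 27 and 31 counts in WT and 37, 43 and 29 counts in IRF8KO, or 3.70, 1.91 and 4.27 against 5.94, 3.86 and 3.15 CPM. The groups overlapped, and a log2 fold change of 0.40 with an SE of 0.61 was not called (adjusted p = 0.691, same edgeR test). Its SE was the largest of the 10 members, and it ran from 0.099 without WT replicate 2 to 0.67 without WT replicate 3, neither called. Its relative Ciita, the activator of class II genes, had 0, 3 and 1 counts in WT and 0, 6 and 8 in IRF8KO and was not tested.

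Per kb of exonic length, levels spanned a wide range. In WT, H2-D1 led with 1009 ± 447 CPM per kb, followed by B2m (822 ± 107), Tapbp (309 ± 141), H2-K1 (247 ± 53.1) and Psmb10 (94.2 ± 33.3; SD, n = 3 each). Then came Psmb8 (43.8 ± 14.7), Tap1 (24.3 ± 7.75), Tap2 (22.7 ± 3.89), Psmb9 (19.9 ± 2.51) and Nlrc5 (0.388 ± 0.145). Neighbours in this order whose means differed by less than the larger of their SDs were H2-D1 and B2m, Tapbp and H2-K1, and the 3 from Tap1 to Psmb9. In IRF8KO, H2-K1 stood next after B2m with 529 ± 84.6 CPM per kb, ahead of Tapbp at 357 ± 67.8, and Psmb9 (26.2 ± 4.25) stood ahead of Tap1 (21.8 ± 3.32) and Tap2 (14.6 ± 2.89); the other places were the same as in WT.

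Among other proteasome genes some rose in IRF8KO and none fell. Of 23 listed genes of the standard core, its activators and its assembly factors, all tested, 4 rose and none fell, where 9.64% of all tested genes rose. Log2 fold changes were above 0 for 20 of the 23, with a median of 0.64, and for 5054 of all 11041 tested genes, with a median of −0.11. The list was not tested for enrichment. Psma6, an outer-ring subunit, went from 67.2 ± 2.55 to 140 ± 23.2 CPM, a log2 fold change of 1.06 (adjusted p = 0.016), and Psmb1, an inner-ring subunit, from 86.4 ± 21.1 to 176 ± 40.9 CPM, a log2 fold change of 1.03 (adjusted p = 0.033, same edgeR test). The other 2 that rose were Psme1, a subunit of the interferon-inducible activator, and Pomp, the chaperone of core assembly, at log2 fold changes of 0.95 and 0.91 (adjusted p = 0.045 and 0.037, same edgeR test). Neither was called with no filter on low counts, and at most 1 of them was with RLE scaling or the replicate block. Psme2, the partner of Psme1, had 0.65 and was not called (adjusted p = 0.116, same edgeR test), and Psmb5, Psmb6 and Psmb7 had 0.61, 0.63 and 0.16, none called. The number that rose was 0 without WT replicate 1, WT replicate 2, IRF8KO replicate 1 or IRF8KO replicate 3, 13 without WT replicate 3 (1 fell, and 2168 of 11953 genes rose), and 0 with library size alone, where 1 fell and the median was 0.15. With the GC and length offset 6 rose and 1 fell, 16 of 23 were above 0 and the median was 0.33, and Psma6 was at 0.51 and not called (adjusted p = 0.089, same edgeR test).

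**Figure D4:**
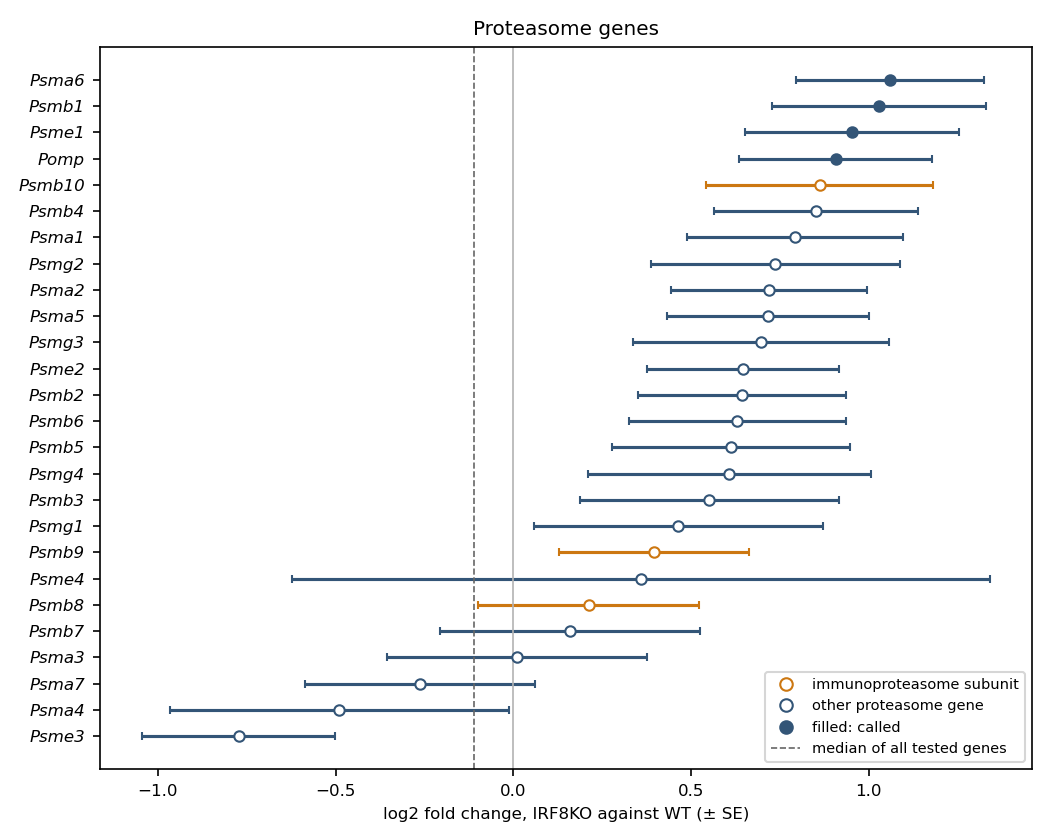
Log2 fold change ± SE (x axis) of 23 proteasome genes (blue) and the 3 immunoproteasome subunits (orange), in order of size, with called genes filled. Psma6, Psmb1, Psme1 and Pomp are filled, and 3 blue genes, Psma7, Psma4 and Psme3, have values below 0.

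Of 21 listed class I chains other than the classical ones, 11 were tested, and 8 of them had log2 fold changes above 0, as did 5054 of all 11041 tested genes. Wholly above WT lay 3 and wholly below it 1, near the 20.0% and 17.9% of all tested genes. The 3, the 8 and the list's median given below all include H2-T10, which passed the filter on low counts only through IRF8KO. Cd1d1, which presents lipids, fell from 11.5 ± 2.91 to 3.30 ± 0.428 CPM (log2 fold change −1.79, adjusted p = 0.022, same edgeR test), and none rose, against 19.1% of all tested genes called in either direction. The call was lost without WT replicate 1 or 2 or IRF8KO replicate 1 or 3, with adjusted p from 0.070 to 0.117. H2-T23, the chain of Qa-1 that NK receptors read, had 219, 197 and 246 CPM in WT and 303, 260 and 337 CPM in IRF8KO. Its groups did not overlap, but the log2 fold change of 0.44 was not called (adjusted p = 0.273, same edgeR test). H2-T10, a non-classical chain, had 4, 2 and 1 counts in WT and 20, 15 and 30 in IRF8KO, with no overlap. It passed the filter on low counts only through IRF8KO, so no test of it is given, and 27.1% of its exonic length is shared with another gene. The list's median was 0.50, or −0.06 with library size alone; 4 chains were called higher without WT replicate 3, where 2168 of 11953 genes were, and 1 with DESeq2 and with the GC and length offset, the latter with 2 called lower.

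Among 17 genes of loading and trimming, 3 rose and 3 fell, with a median of −0.33, where 9.64% of all tested genes rose and 9.46% fell. Without WT replicate 1 or 2 or IRF8KO replicate 1 or 3, none was called higher and 1 to 2 were called lower. Lap3, a cytosolic aminopeptidase, fell from 75.1 ± 13.8 to 15.2 ± 4.16 CPM (log2 fold change −2.30, adjusted p = 5.0e-04). Canx, the chaperone calnexin that folds new class I chains, fell from 137 ± 62.5 to 46.5 ± 9.95 CPM (−1.56, adjusted p = 0.013, same edgeR test); it lost the call without IRF8KO replicate 3 (adjusted p = 0.103) and with the GC and length offset, where its value was −0.72 (adjusted p = 0.077). Pdia3, the oxidoreductase of the loading complex, fell as well, by 1.34 on the log2 scale (adjusted p = 0.027, same edgeR test), with WT replicate 3 at 117.0 CPM just under IRF8KO replicate 2 at 117.6 CPM; its call was lost without WT replicate 1 or 2 or IRF8KO replicate 1 or 3. Sec61g and Sec61b, small subunits of the channel into the endoplasmic reticulum, rose by log2 fold changes of 1.63 and 1.08 (adjusted p = 0.019 and 0.030, same edgeR test); both calls were lost with library size alone and in the 4 fits without WT replicate 1 or 2 or IRF8KO replicate 1 or 3, and Sec61b also lost its call with counts of the opposite strand (0.85, adjusted p = 0.059) and with the GC and length offset, where it dropped to 0.18. Bcap31, an export factor for class I chains, rose by 1.05 (adjusted p = 0.034, same edgeR test), and its call too was lost in those 4 fits and with the GC and length offset. Calr, the other lectin chaperone of the complex, had 0.21 and was not called.

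Regulators of class I promoters were tested for 15 of 16 listed genes, of which 1 rose and 2 fell, a share close to the 19.1% of all tested genes, with a median of −0.07. Without WT replicate 3, 4 rose and 4 fell, where 4003 of 11953 genes were called, and with the GC and length offset 3 rose and 2 fell, where 2681 of 11041 were called. Irf7, which drives interferon responses, rose from 19.0 ± 2.55 to 154 ± 17.2 CPM (log2 fold change 3.01, adjusted p = 3.6e-05, same edgeR test). Creb1, a partner of the class I enhanceosome, and Nfkb1, an NF-kB subunit, fell by 2.23 and 1.03 on the log2 scale (adjusted p = 0.031 and 0.039, same edgeR test). Both lost their call without WT replicate 1 or 2 or IRF8KO replicate 1 or 3, Creb1 also with limma-voom (adjusted p = 0.095) and Nfkb1 with TMM without Apoe (0.059). The Creb1 libraries overlapped, WT replicate 3 being at 3.45 CPM where WT replicates 1 and 2 had 22.6 and 17.6. Irf1, an activator of class I genes, had 111, 106 and 158 CPM in WT and 232, 150 and 234 CPM in IRF8KO, with overlap, and was not called (log2 fold change 0.71, adjusted p = 0.115, same edgeR test). Of 9 listed receptors for class I molecules 8 were matched to a gene, and of these only Pirb, an inhibitory receptor of myeloid cells, had counts enough to test, at 31.1 ± 5.47 and 15.0 ± 4.86 CPM (log2 fold change −1.05, adjusted p = 0.058, same edgeR test). It was not called there but was called lower with DESeq2, limma-voom, library size alone, at least 10 counts in every library and counts of the gene strand.

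Class I molecules are made by nearly all cells, so markers of other cell types are given beside these values. In bulk libraries, fewer cells of a type and less RNA per cell cannot be told apart. The 8 listed microglial markers summed to 37240 to 61339 CPM in WT and 22935 to 32372 CPM in IRF8KO. All had log2 fold changes below 0, as did 5987 of all 11041 tested genes. Among these markers 4 fell, where 9.46% of all tested genes did. Sall1, 1 of the 4, was at 0 counts in every IRF8KO library, so it passed the filter only through WT. Border macrophage markers summed to 609 to 834 CPM in WT, most of it Stab1 at 602 to 823 CPM, and to 3707 to 4911 CPM in IRF8KO. Of the 8 markers, 7 were higher in every IRF8KO than in every WT library, as were 20.0% of all tested genes. Cd163 and F13a1, at 0 counts in all WT libraries, passed the filter only through IRF8KO and could only lie above WT. Lyve1 was at 0 in all 6. Neutrophil and monocyte markers were counted in quantity in IRF8KO replicate 2 alone, at 319 and 42.1 CPM, against at most 0.80 and 1.42 CPM in any other library. Lymphocyte markers summed to at most 0.72 CPM, with Cd3e, Cd8a, Ncr1 and Ms4a1 among those at 0 in all 6, and endothelial markers to 18.9 to 32.1 CPM in WT and 7.38 to 12.04 CPM in IRF8KO. Neuron markers summed to 0.35 to 8.27 CPM in WT and 20.0 to 25.9 CPM in IRF8KO. Astrocyte markers summed to 3.12 to 12.4 CPM and 24.3 to 45.3 CPM. Oligodendrocyte markers summed to 344, 284 and 698 CPM in WT and 684, 511 and 479 CPM in IRF8KO, WT replicate 3 being the highest and the other WT libraries the lowest. The markers went opposite ways: of 5 tested, 3 had log2 fold changes above 0 and 2 below. Mbp lay above WT in every IRF8KO library (1.53, not called). Cnp fell (−2.04, adjusted p = 0.0028, same edgeR test), and Mag lay below WT in every IRF8KO library (−0.60, not called). Without IRF8KO replicate 2, H2-K1 had a log2 fold change of 1.23 and was called (adjusted p = 0.046, same edgeR test); that library had the lowest H2-K1 level of its group. The part of border macrophage, neutrophil, monocyte, neuron, astrocyte or oligodendrocyte transcripts in the members' values was not tested.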

How the data were processed

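Bulk RNA-seq of 6 sorted microglia libraries was analysed, 3 WT and 3 IRF8KO, grouped by title. The authors deposited raw counts per gene, 1 library per file, in the layout of the aligner STAR: 4 summary lines, a count that ignores strand and 2 stranded counts. STAR 2.5.2b, Picard 2.17.11, Subread, featureCounts and the build mm10 are named, per the submitters' processing notes; the annotation release and the role of each tool are not given in the sources used here. Reads outside genes made up 2.44% to 7.70% of uniquely mapped reads, reads on several genes 8.20% to 10.8%; these lines were kept out of library sizes. The gene's own strand held 49.8% to 50.3% of stranded counts, so the strandless count was used. No molecular identifiers are stated, so PCR copies are in the counts.

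Of 49585 identifiers, 49326 matched GENCODE M21 (GRCm38), which gave symbols, coordinates, the length of all exons together and the GC content of the longest transcript. The test across genes used edgeR (version 4.0.16, R version 4.3.3): default filter with a minimum count of 10, TMM, quasi-likelihood F test on genotype, Benjamini-Hochberg adjustment over 11041 genes, called under 0.05; this fit was tested on simulated data. "Same edgeR test" means this fit. Standard errors are the log2 fold change over the root of F. Ratios add 0.5 counts (alternative 5). P-values measure the spread between libraries, which the labels assign to separate brains; within a group, counts of any 2 libraries differed by far more than sampling noise (chi-square per degree of freedom at least 9.14). With 3 against 3, an exact permutation test cannot go below 0.10.

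Alternatives were RLE scaling, library size alone, TMM without Apoe, no filter, at least 10 counts in every library, DESeq2 1.42.0, limma-voom 3.58.1, a block on replicate number, an offset for GC content and length (mgcv 1.9.3), either stranded count, and leaving out each library. The members and lists were chosen with earlier results of these data known. Named genes were the members, Irf8, Psmb5, Psmb6, Psmb7, Ciita and, in each pathway list, the 2 called genes with the smallest p in each direction; H2-T10, H2-T23, Psme1, Psme2, Pomp, Pdia3, Bcap31, Calr, Irf1, Pirb, Psma7, Psma4 and Psme3 were named after their values were seen. Nrdc was matched as Nrd1; Lilrb4a was not matched. RefSeq promoter windows matched 8 members, all but Tap2 and Nlrc5. Sequence was handled with Biopython 1.88.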

Additional observations from a re-analysis of the deposited data

How the results depend on the processing

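Over the 17 alternatives, the number of called genes over all genes ranged from 910 (without IRF8KO replicate 3) to 4003 (without WT replicate 3) against 2109, and that of called members from 0 to 4 against 1. Leaving out 1 library gave 910 to 4003 called genes, 0 to 4 called members and a members' median of 0.11 to 0.61. Members called were 3 with library size alone (H2-K1 higher, Tap1 and Tap2 lower), 2 with at least 10 counts in every library, DESeq2, the GC and length offset or either stranded count, and 0 with the replicate block; the members' median was −0.18 with library size alone. Library size alone gave 651 higher and 1908 lower calls, against 1064 and 1045 with TMM, a share of higher calls of 25.4% against 50.5%. It reversed the log2 fold changes of H2-D1 (−0.13), Tapbp (−0.24), Psmb8 (−0.26), Psmb9 (−0.11), Nlrc5 (−0.10) and Psmb7 (−0.37), none of them called in either fit. B2m changed sign to 0.0080 with RLE scaling, 0.0080 with DESeq2, 0.051 with TMM without Apoe, 0.13 with counts of the gene strand, and, leaving out 1 library, ranged from −0.12 to 0.087, above 0 without WT replicate 2 (0.067) and IRF8KO replicate 1. Leaving out 1 library, Tap1 ranged from −0.32 to 0.16, above 0 without WT replicate 3; with library size alone it was −0.63. Psmb5 changed sign to −0.49 with the GC and length offset. That offset, applied to the ratios after the data were seen, reversed Psmb8/Psmb5 (0.59), Psmb9/Psmb6 (0.17) and Psmb10/Psmb7 (−0.59) and kept both heavy chain to B2m ratios; beyond the offset itself the cause was not tested. Replicate numbers did not pair the libraries: deviations from group means correlated by −0.26, 0.33 and 0.11 for numbers 1, 2 and 3, and not every library correlated best with its own number. With the replicate block 2353 genes were called, and H2-K1 (log2 fold change 1.11, adjusted p = 0.052) lost its call; differences within replicate number in the 5 ratios equal the main ones by construction. Limiting the motif search to the 150 bases before the start left GGGGATTCC in H2-K1 and CCAAT in 4 genes. Nlrc5 had 19 to 43 counts a library.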
